A study of Rattus norvegicus with 6 samples.

Results

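The TNF superfamily ligands and receptors described here are 10 of the 30562 genes in the count table, taken by gene name. The 5 ligands are Tnf, Tnfsf9, Tnfsf10, Tnfsf13b and Tnfsf15, and the 5 receptors are Tnfrsf1a, Tnfrsf1b, Tnfrsf9, Tnfrsf12a and Fas. Genes of the RANK system were left out of the members. Ligands of this family are mostly made as trimers on the cell surface, from which several are shed, and they bind receptors whose outer part is built of cysteine-rich repeats. Receptors with a death domain, such as Tnfrsf1a and Fas, can recruit Tradd or Fadd and caspase-8, whereas receptors such as Tnfrsf1b, Tnfrsf9 and Tnfrsf12a bind TRAF adaptors that lead to NF-κB and MAP kinase signaling. In the degenerating intervertebral disc, TNF is known as an inflammatory cytokine that raises matrix-degrading enzymes in disc cells.

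RNA of rat intervertebral discs was sequenced in bulk in 6 libraries, 3 labelled control and 3 labelled AF-PTK@LEV@SPP1, to compare injured discs with and without this treatment. In the study's methods, the rats were 12-week-old male Sprague–Dawley rats with a needle-punctured tail disc, from 3 separate animals per group, and the control arm received PBS. AF-PTK@LEV@SPP1 is a hybrid of liposomes and bacterial vesicles that carries a peptide for annulus fibrosus cells on a linker cut by reactive oxygen species. It is loaded with an siRNA that the methods describe as directed at mouse Spp1, the gene of osteopontin. Both arms had the puncture, and the treated arm received 10 μL with 1 mg/kg of siRNA into the disc, first at 24 h after surgery, with tissue taken at 8 weeks. The sample records differ from this. They give a control without treatment, 14 days, and macrophages sorted from digested mouse discs.

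The libraries were checked against these descriptions. Every gene identifier in the table was a rat one. Genes of disc matrix were read in all 6 libraries, with Col1a1 at 31887 to 64018 and Col2a1 at 13858 to 31944 normalized CPM (read counts scaled for library size and composition). The macrophage markers Cd68, Csf1r and Adgre1 were read in all 6 as well, at 28.5 to 150, 101 to 261 and 15.3 to 42.8. The libraries thus held RNA of matrix-producing cells beside that of macrophages. Spp1, the siRNA's target, had 8114, 4408 and 4414 normalized CPM in control replicates 1, 2 and 3 and 8047, 6893 and 8451 in the AF-PTK@LEV@SPP1-labelled libraries (log2 fold change 0.31, standard error 0.37, edgeR adjusted p = 0.628). No decrease was seen under the treatment label, so every direction below is relative to the labels.

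Control replicates 2 and 3 differed little beyond counting noise. Their counts varied 1.33 times as much as counting alone would give, and 16 of 14393 genes (0.111%) differed, against 51.3 to 107 times for the 5 other pairs within a group. They were counted as 1 sample. Means and SD therefore have n = 2 distinct control samples and n = 3 for AF-PTK@LEV@SPP1, and an exact permutation test, two-sided, cannot give a p below 0.1. Library totals ran from 15560728 to 17942989 counts, so that 3 counts, the smallest level taken as measured, stood at 0.154 to 0.193 normalized CPM. Fold changes and adjusted p-values come from edgeR's quasi-likelihood test over the 5 distinct samples with Benjamini-Hochberg adjustment over all 15537 genes tested, and a gene is called at an adjusted p under 0.05. No gene lengths were used, so a gene's level is compared between libraries; where a marker list is described by the gene with the highest normalized CPM, that rank also depends on gene length.

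All 10 members passed the filter on low counts. Reads of the 10 genes together made up 215, 240 and 244 CPM, taken from the library totals, in control replicates 1, 2 and 3, and 119, 128 and 128 in the AF-PTK@LEV@SPP1-labelled libraries. Tnfrsf1a and Tnfrsf1b held most of these reads in each library. In control replicate 1 they had 1672 and 1151 of 3863, and Tnfrsf9 had 155. The receptor Tnfrsf9 fell, and it was the only member called. Of all genes tested, 2.57% were called lower and 1.13% higher. The median log2 fold change of the members was -1.09, against 0.046 for all genes tested. For 8 members all AF-PTK@LEV@SPP1-labelled samples lay below both distinct control samples, and Tnfsf10 lay above them, where 21.9% and 23.9% of all genes did so. Fas was the member whose groups overlapped. With the 6 libraries kept apart, Tnf overlapped too.

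The number of members called differed between fits. With the 6 libraries kept as separate samples, edgeR called 5 members lower (Tnfrsf1a, Tnfrsf1b, Tnfsf9, Tnfsf15 and Tnfrsf9) and Tnfsf10 higher, while 9.93% of all genes tested were called lower and 8.20% higher. DESeq2 on the 5 distinct samples called the same 6 genes, with 9.27% and 7.29% of all genes lower and higher, whereas limma-voom called 1 member, with 2.03% and 0.895% of all genes. The 10 genes were chosen with earlier results of these libraries known, so no test of the list itself was made.

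**Figure D1:**
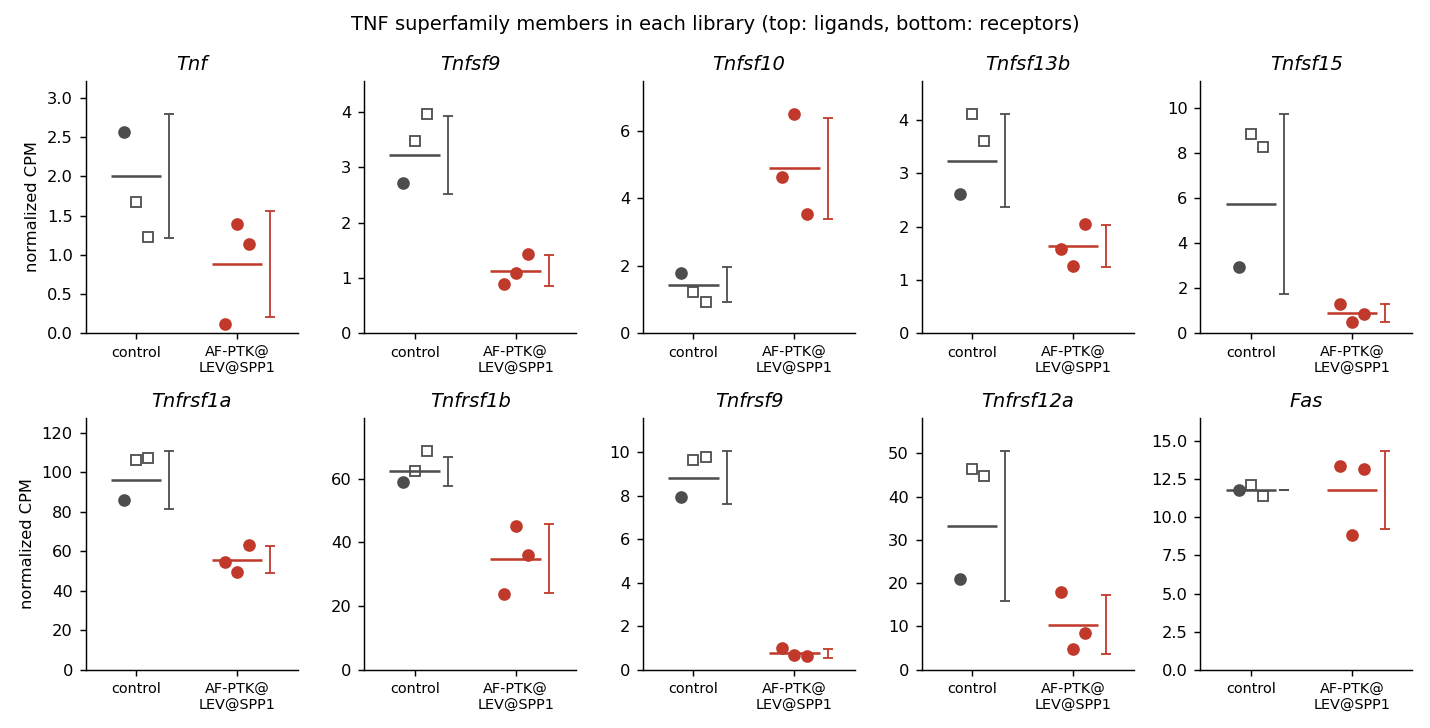
Normalized CPM (vertical axis, linear, from 0) of the 5 ligands (top) and 5 receptors (bottom) in each library. Filled circles are distinct samples, open squares are control replicates 2 and 3, which count as 1 sample; horizontal lines are group means over distinct samples and bars are ± 1 SD (n = 2 and n = 3). For Tnfrsf9 the AF-PTK@LEV@SPP1-labelled libraries sit between 0.626 and 0.999, below the lowest control library at 7.95.

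Among the ligands, Tnf encodes TNF-α, the founding cytokine of the family, which binds Tnfrsf1a and Tnfrsf1b. It was counted at 50, 26 and 20 reads in control replicates 1, 2 and 3 and at 2, 23 and 20 reads in the AF-PTK@LEV@SPP1-labelled libraries, or 2.57, 1.67, 1.22 and 0.117, 1.39, 1.14 normalized CPM. Replicate 1 labelled AF-PTK@LEV@SPP1 was under the 3-count level, and the other libraries with this label were close to control replicates 2 and 3. A log2 fold change of -1.18 had a standard error of 0.87 and was within the spread between samples (edgeR adjusted p = 0.435). It passed in none of the 14 alternatives that tested it (edgeR, DESeq2 and limma-voom adjusted p from 0.326 to 0.736). The macrophage markers, a list of 12 genes led in abundance by Lyz2, summed to 3020, 2086 and 2068 normalized CPM in the control libraries and to 669, 1894 and 1927 in those labelled AF-PTK@LEV@SPP1. Without Lyz2 the list summed to 1189, 820 and 823 against 397, 654 and 527, with each of the latter below every control library. Tnf was thus lowest in the library where these markers were lowest. That library was also lowest for the T cell, dendritic cell, endothelial, skeletal muscle and erythroid marker sums, but not for those of the other lists. The part of any of these markers in the result was not tested. In bulk tissue, fewer cells of a type and less RNA per cell cannot be told apart.

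Tnfsf9 encodes 4-1BB ligand, found on antigen-presenting cells, and its receptor is Tnfrsf9. It had 2.72, 3.47 and 3.97 normalized CPM in control replicates 1, 2 and 3 and 0.881, 1.08 and 1.42 in the AF-PTK@LEV@SPP1-labelled libraries. The groups did not overlap, and the libraries of each group lay close together (means 3.22 ± 0.707, SD, n = 2, and 1.13 ± 0.274, SD, n = 3). With a log2 fold change of -1.52 (standard error 0.35) it missed the threshold (edgeR adjusted p = 0.0795). It passed with the 6 libraries kept apart (edgeR adjusted p = 0.0183) and in DESeq2 (adjusted p = 0.00867), out of 15 alternatives with adjusted p from 0.00867 to 0.296.

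Tnfsf10, the gene of TRAIL, a ligand that can set off apoptosis through death receptors, was the member with a clearly positive value. Its AF-PTK@LEV@SPP1-labelled libraries stood at 4.64, 6.51 and 3.53 normalized CPM, from 79, 108 and 62 reads, against 1.80, 1.22 and 0.915 in control replicates 1, 2 and 3, from 35, 19 and 15 reads. All 3 lay above every control library. Its log2 fold change was 1.78 (standard error 0.42, edgeR adjusted p = 0.0838), and the adjusted p was 0.0203 with the 6 libraries kept apart and 0.00348 in DESeq2, with a range of 0.00348 to 0.294 over 15 alternatives. The 6 adipocyte markers, with Lpl highest in each control library and Fabp4 in each of the others, followed the same order of libraries, with sums of 624, 134 and 131 normalized CPM in control and 1293, 2050 and 971 under the label AF-PTK@LEV@SPP1. Their defining genes Adipoq and Plin1 were above the 3-count level in every library. None of the 6 was called by edgeR, and 1 was called higher with the 6 libraries kept apart. An unadjusted p under 0.05 was found for 4, while DESeq2 called 4 and limma-voom 0. No pairing of a marker list with Tnfsf10 was fixed beforehand. The Schwann cell and the annulus and fibroblast sums were also higher in every AF-PTK@LEV@SPP1-labelled library than in every control library, in another order. The part of the adipocyte markers in the result was not tested.

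Tnfsf13b encodes BAFF, a survival factor of B cells made largely by myeloid and stromal cells. It stood at 2.62, 4.11 and 3.60 normalized CPM in control replicates 1, 2 and 3 and at 1.59, 1.27 and 2.05 in the AF-PTK@LEV@SPP1-labelled libraries. The groups did not overlap, although the gap between the nearest libraries, 2.05 and 2.62, was smaller than the spread among control libraries. Its log2 fold change of -0.99 (standard error 0.35) was not called (edgeR adjusted p = 0.164), nor was it in any of 15 alternatives (adjusted p from 0.0526 to 0.488).

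Tnfsf15, also called TL1A, is a ligand made by endothelial and myeloid cells that binds the death receptor Tnfrsf25. Reads numbered 57, 138 and 136 in control replicates 1, 2 and 3 and 22, 8 and 15 in the AF-PTK@LEV@SPP1-labelled libraries, giving 2.92, 8.87, 8.30 and 1.29, 0.482, 0.854 normalized CPM. Control replicates 2 and 3 stood 2.94 times above control replicate 1 on average, so the control samples differed widely between themselves. The log2 fold change was -2.72, the most negative among the ligands listed as members, but its standard error was 0.62 (edgeR adjusted p = 0.0795). The adjusted p was 0.0203 with the 6 libraries kept apart and 0.00220 in DESeq2, and it ranged from 0.00220 to 0.296 over 15 alternatives. Without the control pair the log2 fold change was -1.74, and without control replicate 1 it was -3.30. The 6 endothelial markers, led in abundance by Pecam1, summed to 492, 616 and 602 normalized CPM in control and to 364, 419 and 421 under the label AF-PTK@LEV@SPP1. Of these markers edgeR called 0, and 4 lower with the 6 libraries kept apart. At an unadjusted p under 0.05, 4 were lower, while DESeq2 called 3 and limma-voom 0. Pecam1 and Cdh5 were well above the 3-count level. The macrophage marker sum was highest in control replicate 1, where Tnfsf15 and the endothelial sum were lowest of the control libraries. The part of the endothelial and macrophage markers in the result was not tested.

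Among the receptors, Tnfrsf9 had the clearest difference. It encodes 4-1BB (CD137), a co-stimulatory receptor best known on activated T and NK cells. In the deposited table the gene lies on chromosome 5 from 161381662 to 161408000, on the plus strand. It was counted at 155, 150 and 160 reads in control replicates 1, 2 and 3 and at 17, 11 and 11 reads in the AF-PTK@LEV@SPP1-labelled libraries. Scaled, these were 7.95, 9.64 and 9.76 against 0.999, 0.663 and 0.626 normalized CPM, with no overlap and little spread within either group. The means of 8.83 ± 1.24 (SD, n = 2 distinct samples) and 0.763 ± 0.205 (SD, n = 3) were 11.6-fold apart, and all 3 samples lay below both control samples (two-sided exact permutation test, p = 0.1, the smallest possible). On the log2 scale the fold change was -3.53 (standard error 0.30, edgeR adjusted p = 0.0196).

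The call of Tnfrsf9 was made in 12 of 15 alternatives, with adjusted p from 1.01e-15 to 0.136 and log2 fold changes from -3.81 to -3.38. It was lost without AF-PTK@LEV@SPP1 replicate 2 (edgeR adjusted p = 0.0733), without AF-PTK@LEV@SPP1 replicate 3 (edgeR adjusted p = 0.136) and without the control pair (edgeR adjusted p = 0.0866). In those fits 0, 0 and 3 of all genes were called by edgeR, while 3109, 2699 and 2572 had an unadjusted p under 0.05. T cell markers as a sum were lower under the same label as Tnfrsf9, but not every marker was. The 6 that were in the table by name, of 8 listed, summed to 24.7, 24.2 and 22.9 normalized CPM in control replicates 1, 2 and 3 and to 8.58, 11.1 and 12.1 under the label AF-PTK@LEV@SPP1. Cd2, which had the most reads of them in the control libraries, and Cd8a fell (edgeR log2 fold change -2.02 and -2.19, adjusted p = 0.0260 and 0.0363). Lck, which had the most reads of them under the label AF-PTK@LEV@SPP1, stood at 5.49, 3.60 and 3.90 against 3.64, 5.30 and 5.64 normalized CPM, and its groups overlapped (log2 fold change 0.068, edgeR adjusted p = 0.908). Cd3e and Cd3d were low but above the 3-count level in every library. NK cell markers did not follow Tnfrsf9, with sums of 9.03, 3.86 and 2.01 normalized CPM in control replicates 1, 2 and 3. Under the label AF-PTK@LEV@SPP1 they summed to 4.76, 19.3 and 24.02, and the groups overlapped. The part of T cells and NK cells in the result was not tested.

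Tnfrsf1a, the TNF receptor with a death domain that most cell types carry, was at 85.8, 106 and 107 normalized CPM in control replicates 1, 2 and 3 and at 54.7, 49.4 and 63.1 in the AF-PTK@LEV@SPP1-labelled libraries. No AF-PTK@LEV@SPP1-labelled library reached the control range (means 96.3 ± 14.8, SD, n = 2, and 55.7 ± 6.89, SD, n = 3). The log2 fold change was -0.80 with a standard error of 0.16, just outside the threshold (edgeR adjusted p = 0.0649). It passed with the 6 libraries kept apart (0.0129 as edgeR adjusted p), in DESeq2 (adjusted p = 0.00100) and with library size alone in place of the trimmed mean (edgeR adjusted p = 0.0428), within a range of 0.00100 to 0.253 over 15 alternatives. The annotated span of Tnfrsf1a overlaps Plekhg6 on the other strand, which had 172, 150 and 165 reads in control and 88, 91 and 96 under the label AF-PTK@LEV@SPP1 (log2 fold change -0.81, edgeR adjusted p = 0.0681). Whether counting used the strand is not given in the sources used here, so reads of the 2 genes could have been shared.

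Tnfrsf1b, the TNF receptor found mainly on immune and endothelial cells, had 59.1, 62.4 and 68.8 normalized CPM in control replicates 1, 2 and 3 and 23.7, 45.1 and 35.9 in the AF-PTK@LEV@SPP1-labelled libraries. The lowest of the 6 was replicate 1 labelled AF-PTK@LEV@SPP1. It was also lowest for Tnf and for the macrophage and endothelial marker sums, among other lists. The part of these cells was not tested. At -0.85, the log2 fold change had a standard error of 0.27 (edgeR adjusted p = 0.143). With the 6 libraries kept apart it was just under the threshold (edgeR adjusted p = 0.0491), as in DESeq2 (adjusted p = 0.0424), and the highest adjusted p of 15 alternatives was 0.390.

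Tnfrsf12a encodes Fn14, the receptor of TWEAK, which is known to be induced in injured tissue. Its levels were 21.0, 46.4 and 44.7 normalized CPM in control replicates 1, 2 and 3 and 18.0, 4.88 and 8.42 in the AF-PTK@LEV@SPP1-labelled libraries. Control replicate 1 and replicate 1 labelled AF-PTK@LEV@SPP1 lay next to each other, and the values spread 3.70-fold within the treated group. The log2 fold change of -1.68 (standard error 0.61) was not called (edgeR adjusted p = 0.173), nor was it in 15 alternatives (adjusted p from 0.0523 to 0.528). Without the control pair it was -1.01, and without replicate 1 labelled AF-PTK@LEV@SPP1 it was -2.36. From the highest to the lowest, the 6 libraries stood in the same order for Tnfrsf12a and Tnfsf15. The span of Tnfrsf12a overlaps Thoc6 on the same strand and Hcfc1r1 and Bicdl2 on the other, so its counts are uncertain. Thoc6 and Hcfc1r1 had log2 fold changes of -0.33 and 0.30 (edgeR adjusted p = 0.238 and 0.386).

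Fas, the death receptor of Fas ligand, was the member without a direction. It stood at 11.8, 12.2 and 11.4 normalized CPM in control replicates 1, 2 and 3 and at 13.4, 8.86 and 13.2 in the AF-PTK@LEV@SPP1-labelled libraries. The control libraries lay inside the range of the others. Its log2 fold change was -0.0038 with a standard error of 0.23 (edgeR adjusted p = 0.993), and the sign turned with library size alone as the scaling (0.0020, edgeR adjusted p = 0.998).

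The known partners of the members were read in the same libraries. Tnfrsf10b, the death receptor of TRAIL, was at 8.52, 14.7 and 14.9 normalized CPM in control replicates 1, 2 and 3 and at 3.88, 4.22 and 3.70 in the AF-PTK@LEV@SPP1-labelled libraries. All of the latter lay below the control libraries, whereas for the ligand Tnfsf10 they lay above them. The log2 fold change of -1.58 (standard error 0.28) was just above the threshold (edgeR adjusted p = 0.0517) and passed in 8 of 15 alternatives (adjusted p from 2.35e-04 to 0.193). Tnfsf12, the gene of TWEAK, differed little, at 24.1, 21.7 and 22.2 against 21.5, 19.8 and 20.8 normalized CPM (log2 fold change -0.16, standard error 0.12, edgeR adjusted p = 0.421), beside its receptor Tnfrsf12a. Tnfrsf25, the receptor of Tnfsf15, stood at 2.21, 2.06 and 1.28 against 1.88, 3.07 and 2.85 normalized CPM, and the groups overlapped (edgeR adjusted p = 0.483).

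Several partners were near the limit of detection. Faslg, the ligand of Fas, had 3, 3 and 10 reads in control replicates 1, 2 and 3 and 3, 10 and 4 under the label AF-PTK@LEV@SPP1, and was not tested. Lta, which encodes lymphotoxin-α and also binds both TNF receptors, had 5, 3 and 5 reads against 0, 1 and 1, and a difference of this size was not tested at this depth. Of the receptors of BAFF, Tnfrsf17 had at most 7 reads in any library, and Tnfrsf13b at most 15 (edgeR adjusted p = 0.740). Tnfrsf13c, the main BAFF receptor of B cells, had a log2 fold change of 1.42 (standard error 0.85, edgeR adjusted p = 0.345). This value ran from 0.62 to 3.05 when a library or the control pair was left out. The gene was counted at 27, 1 and 7 reads in control and 18, 39 and 53 under the label AF-PTK@LEV@SPP1. The 5 B cell markers used, led in abundance by Cd79a, varied in the same way, with sums of 41.8, 6.30 and 4.15 and of 23.0, 58.7 and 91.1 normalized CPM. Ms4a1 and Cd79a were above the 3-count level in every library, none of the 5 markers was called (1 was higher at an unadjusted p under 0.05, DESeq2 and limma-voom called 0), and their part in the result was not tested.

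The rest of the superfamily was followed in 12 further ligands and 18 further receptors, the partners above among them. Of these 30 genes 23 passed the filter on low counts. Edar, the receptor of ectodysplasin known from skin appendages, was the gene called, and it fell. It was counted at 27, 27 and 18 reads in control replicates 1, 2 and 3 and at 5, 6 and 5 reads in the AF-PTK@LEV@SPP1-labelled libraries, a log2 fold change of -2.15 (standard error 0.37, edgeR adjusted p = 0.0485). The call was close to the threshold and was made in 4 of 14 alternatives (adjusted p from 0.00873 to 0.207). It was lost, for instance, without control replicate 1 or without control replicate 2. None of the 7 ligands tested was called by edgeR, although 3 were lower at an unadjusted p under 0.05 and DESeq2 called 1 of them lower and limma-voom 0. For all genes tested, edgeR, DESeq2 and limma-voom called 2.57%, 9.27% and 2.03% lower, and 2015 of 15537 were lower at an unadjusted p under 0.05. The median log2 fold change of the 23 genes was -0.20, with 14 negative and 9 positive values, against -1.09 for the members and 0.046 for all genes tested.

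Tnfsf8, the ligand of CD30, had the most negative value of these ligands and was picked out after its values were seen. Reads numbered 39, 194 and 224 in control replicates 1, 2 and 3 and 2, 9 and 4 in the AF-PTK@LEV@SPP1-labelled libraries. The control pair stood 6.53 times above control replicate 1. Its log2 fold change of -4.67 carried a standard error of 1.00 and was not called (edgeR adjusted p = 0.0716), but passed in 4 of 15 alternatives (adjusted p from 1.25e-04 to 0.249). Leaving out a library or the control pair moved its log2 fold change between -5.46 and -2.74. In the RANK system, Tnfsf11, the gene of RANKL, fell from 111, 137 and 135 normalized CPM in control replicates 1, 2 and 3 to 9.16, 10.5 and 8.99 (log2 fold change -3.70, edgeR adjusted p = 0.00863). Its receptor Tnfrsf11a and its decoy Tnfrsf11b, which also binds TRAIL, had log2 fold changes of -1.97 and 1.89 (edgeR adjusted p = 0.0691 and 0.121).

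**Figure D2:**
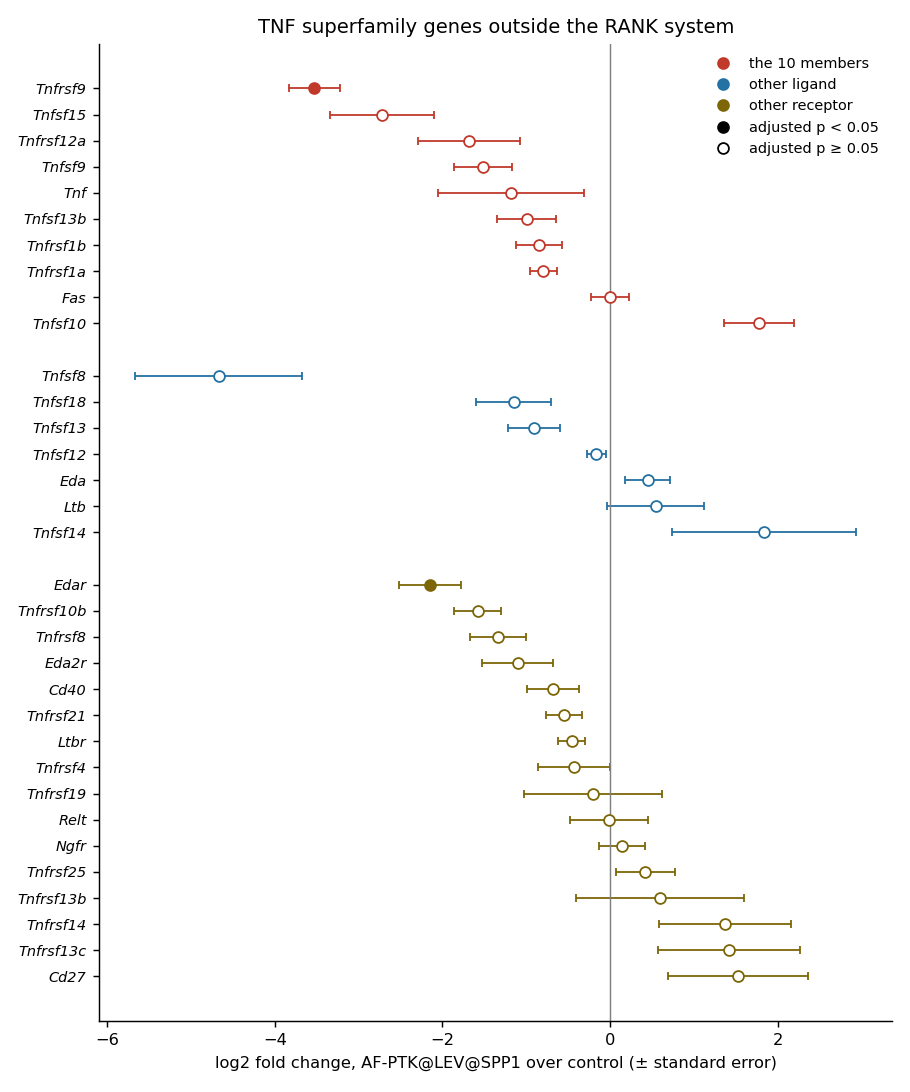
Log2 fold change of AF-PTK@LEV@SPP1 over control (horizontal axis) with its standard error (bars) for the 10 members and the 23 other superfamily genes that were tested outside the RANK system, from edgeR's quasi-likelihood test on the 5 distinct samples. Filled points are the genes called, Tnfrsf9 at -3.53 and Edar at -2.15, and the members run from -3.53 to 1.78.

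By position, several members sit in clusters of the family, as the deposited table gives it. Chromosome 5 held 9 of the 43 superfamily genes followed, 3 of them members. Tnfsf15 and Tnfsf8 are neighbors there, 95145 bases apart with no annotated gene between them, and both had strongly negative values with control replicate 1 below the control pair. Tnfrsf1b lies 18979 bases from Tnfrsf8, the CD30 gene, whose log2 fold change was -1.33 (edgeR adjusted p = 0.0940). Tnf lies 1152 bases from Lta and 2908 bases from Ltb on chromosome 20, and Ltb, the gene of lymphotoxin-β, had a log2 fold change of 0.54 (edgeR adjusted p = 0.587) beside -1.18 for Tnf. Tnfsf9 and Tnfsf14 are 122759 bases apart on chromosome 9 and had log2 fold changes of -1.52 and 1.84, the latter with a standard error of 1.10 (edgeR adjusted p = 0.347). These neighbors were named for their position after their values were seen.

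Below the receptors, a list of 31 adaptors, kinases, ubiquitin enzymes and death proteins of the receptor complex was followed. Of the 30 tested, edgeR called 4 lower and 0 higher, 7 lower with the 6 libraries kept apart, and 9 were lower and 0 higher at an unadjusted p under 0.05. DESeq2 called 7 lower and limma-voom 2, and neither called any higher. Of all genes tested, edgeR called 2.57% lower, 9.93% with the 6 libraries kept apart, DESeq2 9.27% and limma-voom 2.03%. At an unadjusted p under 0.05, 2015 of all 15537 genes were lower and 1926 higher. The median log2 fold change was -0.19. Birc3, which encodes the ubiquitin ligase cIAP2 and is itself induced by NF-κB, fell from 35.2, 29.6 and 29.5 normalized CPM in control replicates 1, 2 and 3 to 5.99, 6.27 and 7.12 (log2 fold change -2.33, standard error 0.15, edgeR adjusted p = 0.0119). Traf1, an adaptor that binds Tnfrsf1b and Tnfrsf9 complexes, fell from 7.95, 6.30 and 6.04 to 1.94, 2.89 and 2.22 normalized CPM (log2 fold change -1.59, edgeR adjusted p = 0.0484). Tnfaip3, the gene of the deubiquitinase A20, which dampens NF-κB, fell with a log2 fold change of -1.51 (edgeR adjusted p = 0.0196). It is the 1 gene of this list that the study's own text names for these libraries. Birc2, the gene of cIAP1, fell less, by 0.63 on the log2 scale (edgeR adjusted p = 0.0484). Birc3 and Tnfaip3 were called in 12 and 11 of 15 alternatives. The calls of Traf1 and Birc2 lay close to the threshold and were each made in 6 of 15 alternatives (edgeR, DESeq2 and limma-voom adjusted p from 8.41e-05 to 0.188 and from 9.29e-05 to 0.194).

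Genes for the making and release of TNF were a further list of 13, all tested. Litaf, named for its role in LPS-induced TNF transcription, was the gene called, and it fell from 125, 110 and 109 normalized CPM in control replicates 1, 2 and 3 to 64.0, 63.6 and 65.7 (log2 fold change -0.87, standard error 0.11, edgeR adjusted p = 0.0281). Litaf was called in 9 of 15 alternatives (edgeR, DESeq2 and limma-voom adjusted p from 2.20e-10 to 0.150), and its call was lost with library size alone as the scaling, without the control pair, without control replicate 1 and without any 1 of the AF-PTK@LEV@SPP1 replicates. No gene of this list was called higher (edgeR, DESeq2 and limma-voom called 0, and 0 had an unadjusted p under 0.05). With the 6 libraries kept apart 5 of them were called lower, as were 9.93% of all genes tested. The median log2 fold change was -0.52.

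Genes known to be induced by TNF in many cell types were also followed. Of 28 listed, 27 were tested and 18 fell, with none called higher by edgeR, DESeq2 or limma-voom and 0 higher at an unadjusted p under 0.05. Calls of lower genes numbered 11 in limma-voom, 7 without AF-PTK@LEV@SPP1 replicate 1, and 0 without AF-PTK@LEV@SPP1 replicate 2, without AF-PTK@LEV@SPP1 replicate 3 or without the control pair. Among all genes tested, edgeR called 2.57% lower and 1.13% higher, and limma-voom 2.03% lower. Without AF-PTK@LEV@SPP1 replicate 1 edgeR called 83 of 15363 genes lower, and without replicate 2 or replicate 3 of this label it called 0. The entry matched to Junb is annotated as a pseudogene and held 0 reads in all libraries, so the level of Junb is not known here. Log2 fold changes ran from -8.45 for Ccl20 to 1.16 for Vcam1. Their median was -2.43, and -1.79 when Ccl20 and Csf2, whose AF-PTK@LEV@SPP1-labelled libraries were all at or under 3 counts, were set to the bound that their counting error allows. The study's own text names 8 of the 28 for these libraries, so the list is not independent evidence of its direction. Other inducers share many of these genes.

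The 4 largest falls were in chemokines and a cytokine. Ccl20, a chemokine for CCR6-bearing lymphocytes, had 190, 526 and 589 reads in control replicates 1, 2 and 3 and 1 read in each AF-PTK@LEV@SPP1-labelled library, a ratio of group levels of 381 with a 95% counting interval of 130.3 to 1846 (edgeR adjusted p = 0.0205). Cxcl2, a neutrophil chemokine, had 533, 1120 and 1114 reads against 4, 2 and 7 (log2 fold change -7.56, edgeR adjusted p = 0.0182). Cxcl1, its relative, had 984, 1563 and 1752 reads against 3, 17 and 23 (log2 fold change -6.52, edgeR adjusted p = 0.0221). Il6, an inflammatory cytokine, had 164, 286 and 270 reads against 2, 6 and 8 (log2 fold change -5.36, edgeR adjusted p = 0.0230). Their calls were not kept throughout. Ccl20, Cxcl2, Cxcl1 and Il6 were called in 10, 11, 12 and 10 of 15 alternatives. Of the 4, limma-voom called Cxcl1 alone, and the calls of Ccl20 and Il6 were also lost without AF-PTK@LEV@SPP1 replicate 1. When a library or the control pair was left out, log2 fold changes ran from -9.09 to -7.22 for Ccl20 and from -8.09 to -6.72 for Cxcl2. They ran from -7.00 to -5.91 for Cxcl1 and from -5.79 to -4.73 for Il6. In each of these genes the AF-PTK@LEV@SPP1-labelled libraries lay far below every control library, while Tnf itself was not separated from its spread.

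Cell types were followed by 16 lists of marker genes, of which 4 held a gene that was called, the T cell list above among them. Macrophage markers Cd68, Cd14 and Msr1 fell (3 of 11 tested, edgeR adjusted p = 0.0231, 0.0119 and 0.0463), but not every gene of that list was lower. Cd163 stood at 54.0, 29.5 and 29.0 against 47.1, 142 and 88.2 normalized CPM (edgeR adjusted p = 0.246), and the groups overlapped for it and for Lyz2, Aif1, Adgre1 and C1qa. Osteoclast markers Ctsk, Acp5 and Atp6v0d2 fell (3 of 5 tested, edgeR adjusted p = 0.0306, 0.0381 and 0.0444). The osteoclast list, led in abundance by Ctsk, summed to 5338, 3360 and 3371 normalized CPM in control replicates 1, 2 and 3 and to 817, 745 and 479 under the label AF-PTK@LEV@SPP1. Tnfsf11 and Tnfrsf11a were lower under the same label. Control replicate 1 was highest for this sum and for Tnfrsf11a but lowest of the control libraries for Tnfsf11. The part of these cells was not tested. Of the dendritic cell list 1 gene of 5 tested fell, Ccr7 (edgeR adjusted p = 0.0322), and its sums were 46.3, 37.0 and 35.3 against 25.4, 42.2 and 36.3, led by Itgax. In the other 12 lists edgeR called 0 of 69 genes tested, while 17 had an unadjusted p under 0.05, DESeq2 called 16 and limma-voom 0. Of all 15537 genes tested, edgeR called 575, 3941 had an unadjusted p under 0.05, DESeq2 called 2572 and limma-voom 454.

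The remaining sums differed between libraries, several of them also within a label. Neutrophil markers, with S100a9 or S100a8 highest depending on the library, summed to 1116, 189 and 179 normalized CPM in control replicates 1, 2 and 3 and to 287, 2704 and 3717 under the label AF-PTK@LEV@SPP1. NK cell markers, with Nkg7, Ncr1 or Klrd1 highest depending on the library, summed to 9.03, 3.86 and 2.01 against 4.76, 19.3 and 24.02, with the defining gene Klrb1 at or under 3 counts throughout. Mast cell markers, led by Kit except in replicate 3 labelled AF-PTK@LEV@SPP1, where Ms4a2 was highest, summed to 24.9, 17.7 and 17.4 against 19.7, 42.4 and 32.3. Skeletal muscle markers, with Myh4 highest in each control library and Acta1 in each of the others, summed to 813, 1077 and 1092 against 808, 8445 and 2124, and erythroid markers, led by Hbb, to 338, 356 and 389 against 303, 3048 and 1842. The 3 Schwann cell markers used, led by S100b, summed to 261, 254 and 236 against 420.1, 379 and 416. Replicates 2 and 3 labelled AF-PTK@LEV@SPP1 thus held more RNA of the neutrophil, NK cell, mast cell, muscle and erythroid lists than replicate 1. Among skeletal lists, annulus and fibroblast genes led by Col1a1 summed to 53698, 74340 and 75224 against 114606, 81354 and 97077. Nucleus pulposus and chondrocyte genes led by Col2a1 summed to 18428, 29467 and 29326 against 38609, 26354 and 42457, and osteoblast genes to 4478, 1774 and 1768 against 2102, 3048 and 1750, led by Ibsp except in replicate 3 labelled AF-PTK@LEV@SPP1, where Bglap was highest. In the nucleus pulposus and chondrocyte list, Tbxt, Krt8 and Krt18 lay above every control library in all AF-PTK@LEV@SPP1-labelled ones. Matn3 lay below them, and 4 genes overlapped (edgeR called 0 of this list, DESeq2 3 higher and 1 lower). The part of these differences between libraries in the members' values was not tested.

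Promoter sequences of RefSeq (GRCr8 build, 300 bases each, 250 before and 50 after the annotated start) were matched by symbol to 9 of the 10 members, all but Tnfsf9. They were searched on both strands for the κB consensus, for the AP-1 motif TGANTCA and for the TATA box TATAAA, which 4.18%, 7.33% and 14.2% of the 33469 promoters in the table hold. No κB consensus was found in the 9 windows. AP-1 matches were found for Tnfrsf1b and Fas, and TATA matches for Tnf and Tnfsf15. A match is a description of letters and not a site of binding, and a window without a match says nothing of a factor. The windows are shown for Tnfrsf9, the member called, for Tnfsf10, the member with the opposite direction, and for Tnf and Tnfrsf1b, a ligand and receptor pair with a match each. They run 5′ to 3′ on the gene's strand with motif matches in capitals. The Tnfrsf9 window is chr5:166664244-166664543 on the plus strand, that of Tnfsf10 chr2:112136689-112136988 on the plus strand, that of Tnf chr20:3626435-3626734 on the plus strand, and that of Tnfrsf1b chr5:162387362-162387661 on the minus strand.
Tnfrsf9: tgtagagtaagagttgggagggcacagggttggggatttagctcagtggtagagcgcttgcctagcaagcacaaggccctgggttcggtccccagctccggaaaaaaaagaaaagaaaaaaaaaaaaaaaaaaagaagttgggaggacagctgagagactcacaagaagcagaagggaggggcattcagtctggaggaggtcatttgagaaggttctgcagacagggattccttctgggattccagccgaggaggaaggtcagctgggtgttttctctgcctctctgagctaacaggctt
Tnfsf10: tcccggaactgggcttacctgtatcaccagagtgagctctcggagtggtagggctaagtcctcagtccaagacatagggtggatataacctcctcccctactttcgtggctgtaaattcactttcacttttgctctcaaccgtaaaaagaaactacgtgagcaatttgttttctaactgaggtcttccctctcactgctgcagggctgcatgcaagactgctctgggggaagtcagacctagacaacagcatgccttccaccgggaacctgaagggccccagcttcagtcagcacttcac
Tnf: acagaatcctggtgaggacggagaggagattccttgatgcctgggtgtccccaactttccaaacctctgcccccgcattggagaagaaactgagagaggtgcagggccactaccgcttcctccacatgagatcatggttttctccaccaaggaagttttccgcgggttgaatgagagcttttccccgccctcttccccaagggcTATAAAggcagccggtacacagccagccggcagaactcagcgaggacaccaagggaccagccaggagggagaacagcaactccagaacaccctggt
Tnfrsf1b: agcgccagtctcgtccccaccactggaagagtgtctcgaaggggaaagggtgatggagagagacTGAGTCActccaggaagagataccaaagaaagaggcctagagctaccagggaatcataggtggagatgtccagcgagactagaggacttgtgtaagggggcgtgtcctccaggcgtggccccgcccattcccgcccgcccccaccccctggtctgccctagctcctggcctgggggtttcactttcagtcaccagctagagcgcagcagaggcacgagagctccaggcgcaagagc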

How the data were processed

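RNA-seq read counts of 6 rat intervertebral disc libraries were used. The authors deposited raw counts per gene and library, without normalization. The table's name gives featureCounts, and the processing notes list FastQC, Trimmomatic, HISAT2, featureCounts and DESeq2 without versions; they name the mouse build mm10, although every gene identifier is a rat one. Columns named IVD were taken as control and columns named AFPTK as AF-PTK@LEV@SPP1, with the replicate numbers of the titles. Because control replicates 2 and 3 were near-identical over the genes with at least 20 summed counts, they were added up to 1 sample.

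Genes were filtered with filterByExpr (minimum count 10), scaled by trimmed mean of M values and tested with the quasi-likelihood test of edgeR 4.0.16 in R 4.3.3, with Benjamini-Hochberg adjustment over all genes tested. DESeq2 1.42.0 and limma 3.58.1 (limma-voom) were run as alternatives, as were other scalings and filters, the 6 libraries kept apart, a stricter call rule, and fits without single libraries. Standard errors of edgeR's log2 fold changes are approximate. They were back-calculated as the absolute log2 fold change divided by the square root of the test's F statistic. The exact permutation test used log2 of normalized CPM plus 0.5. The scripts were tested on simulated data. P-values speak of these animals' libraries only, and with 2 distinct control samples their precision is low.

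The members and all lists (other ligands and receptors, the RANK system, the receptor complex, TNF production and shedding, TNF targets, and 16 lists of cell markers) were chosen with earlier results of these data known. Named are all members, their known partners, the RANK genes, every other ligand or receptor called, of each further list at most 4 called genes with the largest changes in each direction, Spp1, and of each marker list the most abundant and the defining genes; genes named beyond this, among them other called markers, genes that overlap a member and neighbors on the chromosome, were chosen after their values were seen. Of the 105 marker genes, 5 were not in the table by name; 2 further markers are not reported here. Promoters came from RefSeq (GRCr8) and not from the table's own annotation, for which no build is named.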

Additional observations from a re-analysis of the deposited data

How the results depend on the processing

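On the 5 distinct samples edgeR called 575 genes (400 lower, 175 higher); separate fits called 2727 with the 6 libraries kept apart (1494 and 1233) and 2572 in DESeq2 (1440 and 1132), and both totals include the 575; library size alone gave 540 (388 and 152); leaving out a library gave 0 to 566. Members called numbered 1, against 6 with 6 libraries, 6 in DESeq2, 2 with library size alone and 0 to 1 without a library. For the other superfamily genes the count of 1 became 4 with 6 libraries, 4 in DESeq2, 2 with RLE scaling, 0 in limma-voom and 0 to 3 without a library. For the receptor complex 4 became 7, 7 in DESeq2, 2 in limma-voom, 2 with library size alone and 0 to 4 without a library. For TNF production and shedding 1 became 5, 6 in DESeq2, 2 with RLE scaling, without a filter or with a minimum count of 30, 0 with library size alone or with the stricter rule on fold change, and 0 to 1 without a library. For TNF targets 18 became 11 in limma-voom and 0 to 18 without a library. Fits without an AF-PTK@LEV@SPP1 replicate, without control replicate 1 or without the control pair have fewer distinct samples. Those without control replicate 2 or without control replicate 3 keep 5 distinct samples. The cause of their differences, and of those in the fits with all libraries, was not tested. Tnf was not tested at a minimum count of 30. The log2 fold change of Fas turned to 0.0047 with 6 libraries, 0.0020 with library size alone and 0.0086 at a minimum count of 30, and ran from -0.14 to 0.17 without a library; the 9 other members kept their sign in every alternative. Replicate numbers as a block gave 741 genes, 1 member, 2 other superfamily genes and 2 of the receptor complex. Correlations of deviations from the group means within a number were -0.336, -0.301 and -0.0827. With control replicates 2 and 3 near-identical, these values are not independent and cannot decide whether the numbers pair the samples. Where 1 control sample was left, it was assumed to vary like the other group. Genes under 3 counts, such as Tnf in 1 library, are limited by depth.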
